A study of Mus musculus with 8 samples.

Results

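A set of 10 genes that mark hippocampal interneurons or their lineages was followed in whole hippocampus of adult male mice, after exposure through the mother to BPA (bisphenol A, used to make plastics and able to bind hormone receptors). The genes are Dlx1, Lhx6, Sox6, Maf, Pvalb, Calb2, Reln, Ndnf, Nos1 and Erbb4. They were taken by symbol from the deposited read counts, which hold 10 such rows of 24527 rows in all, and all 10 had enough reads to be tested. Wild-type C57BL/6J males, 4 in number, whose dams ate 50 mg of BPA per kg of a low-phytoestrogen diet were set against 4 males of the same strain and genotype whose dams ate that diet with 0 mg of BPA. The diets were given through gestation and lactation, every pup went onto control feed when weaned at postnatal day 21, and the animals were 20 weeks old. The hippocampus was not sorted into cell types, so in these bulk samples fewer cells of a type and less RNA per cell cannot be told apart. The sources used here do not say whether mice of a group shared a litter, and the p-values cover only the spread between these mice.

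Interneurons are the GABA-releasing cells that time and restrain the firing of hippocampal pyramidal and granule cells. Most arise in the embryonic medial or caudal ganglionic eminence (MGE or CGE), where Dlx transcription factors start a shared GABA neuron programme. Lhx6 and then Sox6 carry the MGE branch on to cells that make parvalbumin or somatostatin. The adult types are told apart by calcium-binding proteins, secreted factors and signalling molecules, and several of these genes are also used by other cells of the hippocampus, among them Cajal-Retzius cells, mossy cells, oligodendrocyte precursors and microglia.

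BPA libraries were deeper than control libraries, at 43.1 to 54.01 M (mega) counts in BPA mice against 27.1 to 40.8 M counts in controls, so exposure and depth cannot be told apart by group. Markers of hippocampal principal cells were abundant in every library. Prox1 of dentate granule cells was at 117 to 127 CPM (read counts scaled to library size with TMM) in BPA mice and 85.02 to 131 CPM in controls, and Wfs1 of CA1 was at 86.5 to 107 CPM in BPA mice and 78.4 to 136 CPM in controls. The 13 choroid plexus markers summed to 170 to 843 CPM in BPA mice and 213 to 3145 CPM in controls, with the top value in control replicate 2. Their part in the results was not tested.

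None of the 10 genes passed the test between BPA and control mice (edgeR quasi-likelihood test, Benjamini-Hochberg adjustment over 15434 genes, lowest adjusted p 0.955). Over all genes tested, edgeR called 0 (0% of genes), with 698 genes (4.52%) at an unadjusted p under 0.05. Limma-voom also called 0, and 704 had an unadjusted p below 0.05, and DESeq2 called 7 of 20749 genes (0.0337%), none of them among the 10. Calb2, higher in BPA mice, and Erbb4, lower, had an unadjusted p under 0.05. That makes 1 of the 10 genes higher, where 2.22% of all genes were, and 1 lower, where 2.3% were. Of the 10, 5 had a log2 fold change above 0 and 5 below, as had 50% of all genes tested. The median log2 fold change was 0.0022 over the 10 genes and 4.9e-05 over all genes tested. BPA and control values overlapped for each of the 10, where 2.79% of all genes tested had no overlap.

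In the fit with a group term alone, all 10 genes had a fold whose 95% interval stayed within 1.25-fold either way, against 68% of all genes tested. That held for 9 or 10 of them on leaving out 1 library, but for only 5 when the fit took library depth as a covariate. There the fold of Reln was 0.759 (95% interval 0.651 to 0.883) and that of Dlx1 was 1.20 (0.973 to 1.49). Each of the 10 genes also had a larger standard error in that fit, so leaving the band need not mean a larger change. The fold of Calb2 was 1.08 with the covariate (0.930 to 1.255) and 1.12 without it. The standard error of its log2 fold change was 0.098 with the covariate and 0.060 without it. In the fit with a group term alone, the standard error of a log2 fold change had a median of 0.0605 over the 10 genes and 0.0746 over all genes. Each gene rested on at least 456 reads in every library.

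**Figure D1:**
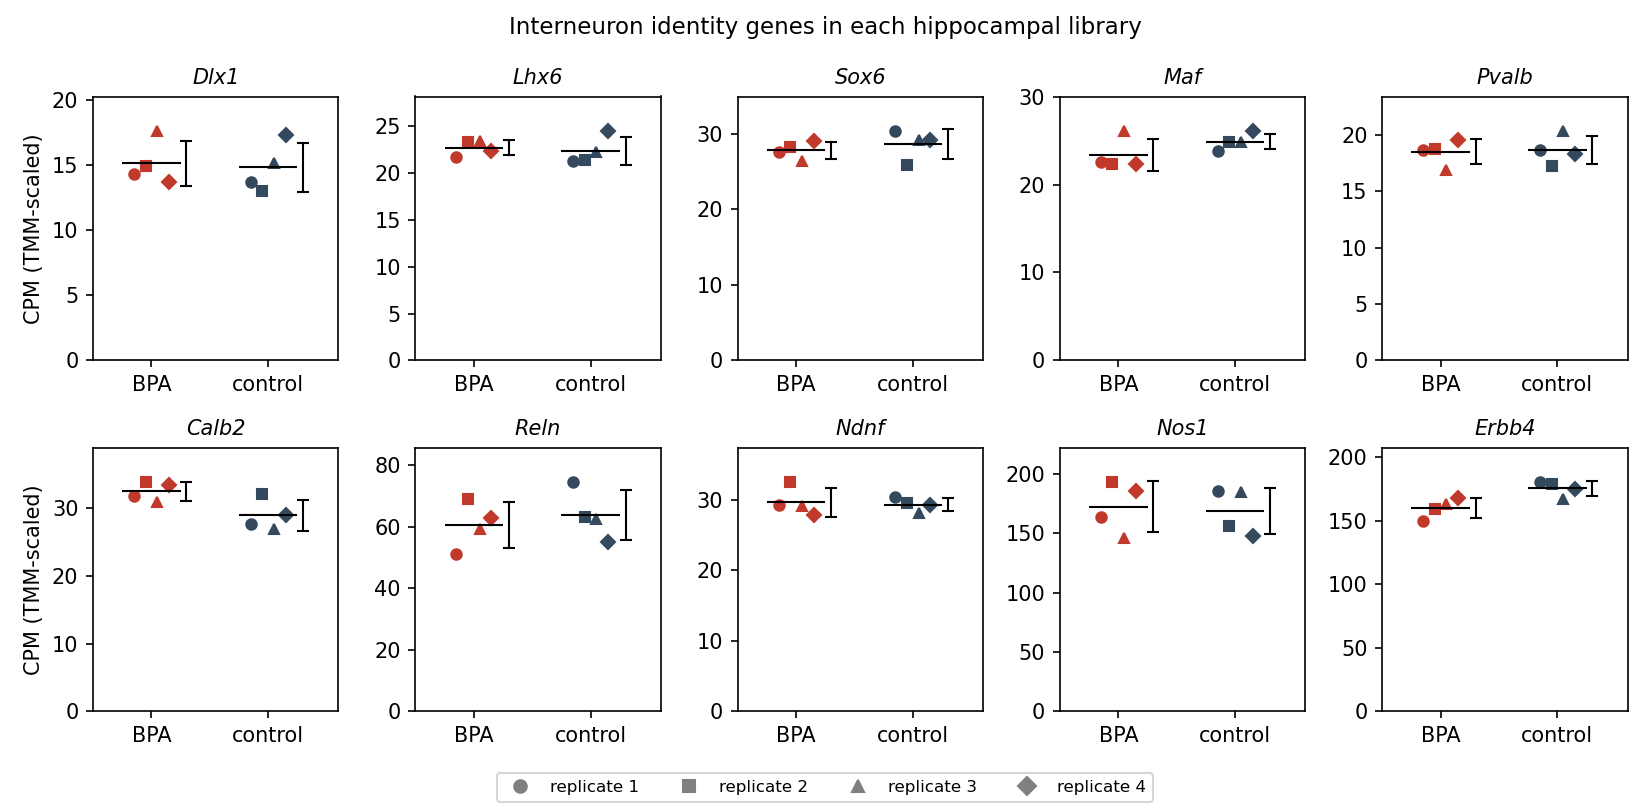
TMM-scaled CPM (vertical axis, from 0) of the 10 genes in each library, BPA mice on the left and control mice on the right of each panel, with a marker shape for each replicate, a line at the mean and a bar of 1 SD (n = 4 each). The BPA and control points overlap in every panel, and for Erbb4 the overlap lies between BPA replicate 4 at 168 CPM and control replicate 3 at 167 CPM.

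Levels of different genes were compared per length, as CPM per kb of merged exons. Pvalb, which encodes the calcium buffer parvalbumin of fast-spiking basket and axo-axonic cells, averaged 17.8 CPM per kb over the 8 libraries. Calb2, which encodes calretinin, averaged 17.6, Nos1, the neuronal nitric oxide synthase, 15.3, and Erbb4, a neuregulin receptor, 13.6. The ranges of neighbours in this order overlapped, from 16.3 to 19.5 for Pvalb, 15.5 to 19.5 for Calb2, 13.1 to 17.3 for Nos1 and 12.1 to 14.6 for Erbb4.

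Lhx6 came next at 4.68 CPM per kb (range 4.42 to 5.09), apart from the genes on either side. Maf at 2.93, Ndnf at 2.92, Dlx1 at 2.78 and Reln at 2.62 CPM per kb overlapped each other. Sox6 was lowest at 1.91 CPM per kb, with a range of 1.75 to 2.05 that lay below the 2.16 to 3.14 of Reln. The order depends on the exons counted in the length. With only exons of transcripts matched to RefSeq, an alternative chosen after seeing the data, Reln was at 5.31 CPM per kb and sixth, Calb2 was first at 21.5, Sox6 was at 3.19 and Ndnf was lowest at 2.92.

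**Figure D2:**
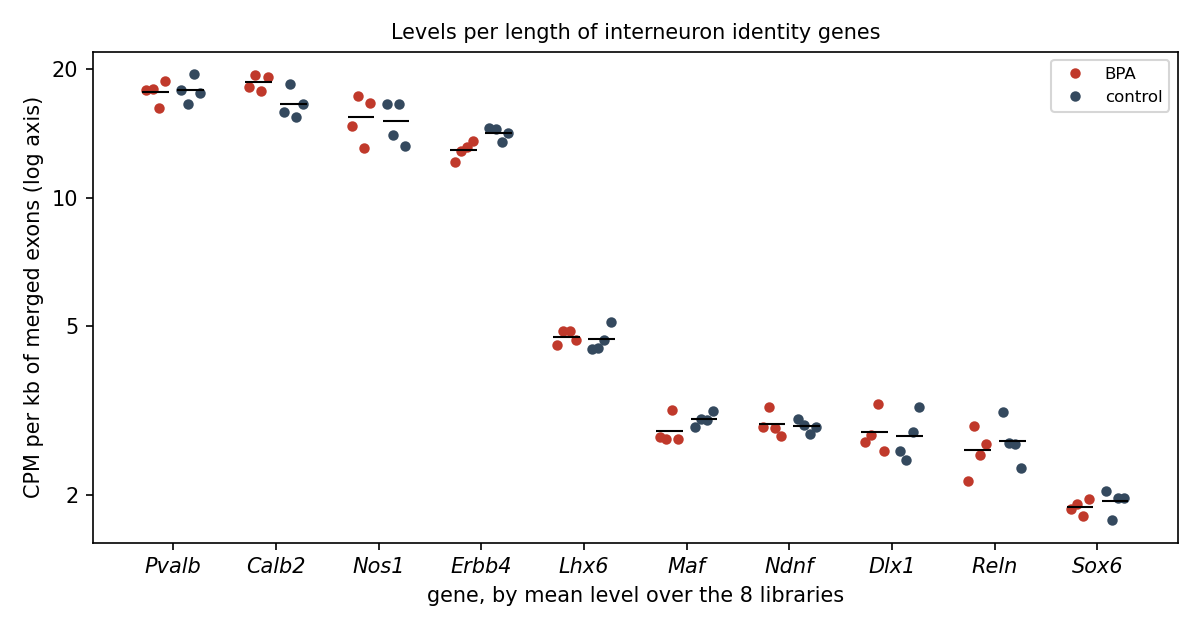
CPM per kb of merged exons (log axis) for the 10 genes in order of their mean over the 8 libraries, with BPA libraries to the left of control libraries and a line at each group mean. Pvalb, Calb2, Nos1 and Erbb4 lie between 12.1 and 19.5, Lhx6 near 4.68, and the other 5 genes between 1.75 and 3.27.

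The transcription factors of the lineage did not pass the test. Dlx1, a homeobox gene that starts the GABA neuron programme (chromosome 2, 71528113 to 71533981), was at 14.4, 14.9, 17.7 and 13.7 CPM in BPA replicates 1 to 4, against 13.7, 13.1, 15.2 and 17.4 CPM in control replicates 1 to 4. In each group 1 library, BPA replicate 3 or control replicate 4, stood above the rest, and the groups overlapped over nearly their whole range. The fold was 1.03 with a 95% interval of 0.884 to 1.19. The log2 fold change was 0.037, or 0.27 with library total as a covariate (edgeR unadjusted p 0.0818), and it ran from -0.043 to 0.12 on leaving out 1 library. Dlx1 shares 335 exon bases with Dlx1as on the opposite strand, a gene with 5843 reads over the 8 libraries, and the sources used here do not state whether strand was used in counting, so the Dlx1 count is uncertain.

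Lhx6, the LIM-homeobox factor that specifies MGE interneurons (chromosome 2, 36081953 to 36105408), was at 21.7, 23.3, 23.4 and 22.3 CPM in BPA replicates 1 to 4, against 21.2, 21.3, 22.2 and 24.5 CPM in control replicates 1 to 4. The BPA values lay inside the control range. The fold was 1.02 (95% interval 0.933 to 1.11). The log2 fold change of Lhx6 was 0.026, against 0.0024 without control replicate 1, 0.070 without control replicate 4 and 0.12 with library total as a covariate.

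Sox6, which acts after Lhx6 in the positioning and maturation of MGE cells and is also made by oligodendrocyte precursors (chromosome 7, 115470872 to 116038796), was at 27.6, 28.3, 26.5 and 29.1 CPM in BPA replicates 1 to 4, against 30.4, 25.9, 29.2 and 29.2 CPM in control replicates 1 to 4. All 4 BPA values again lay inside the control range. The fold was 0.972 (95% interval 0.891 to 1.06). The log2 fold change of Sox6 was -0.041, against -0.088 without control replicate 2, -0.0099 without control replicate 1 and -0.085 after thinning to the smallest library. The 11 genes listed for oligodendrocyte precursors and their lineage, led by Bcas1 and Pdgfra, summed to 352 to 389 CPM in BPA mice and 350.1 to 395 CPM in controls. That sum is not a level of precursors alone. The median log2 fold change of the 11 genes was -0.037, with 4 above 0 and 7 below, and 0 passed. Pdgfra was at 0.022 and Cspg4 at -0.040. The part of these cells in the Sox6 value was not tested.

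Maf, a bZIP factor of MGE interneurons that is also expressed by microglia and macrophages (chromosome 8, 115682942 to 115707794), was at 22.5, 22.4, 26.1 and 22.3 CPM in BPA replicates 1 to 4, against 23.8, 24.9, 24.8 and 26.03 CPM in control replicates 1 to 4. The other 3 BPA libraries lay below every control library, and BPA replicate 3 lay above every control library. The fold was 0.938 (95% interval 0.857 to 1.03; log2 fold change -0.092, or -0.15 without BPA replicate 3, with an edgeR adjusted p of 0.751). The 13 microglia and macrophage markers, among them Cx3cr1 and P2ry12, summed to 240 to 262 CPM in BPA mice and 241 to 257 CPM in controls, with 7 log2 fold changes above 0 and 6 below. Maf shares 440 exon bases with Gm15655 on the opposite strand, which leaves its count uncertain.

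Of the calcium-binding proteins, Pvalb had a fold near 1 and Calb2 was higher in BPA mice without passing the test. Pvalb (chromosome 15, 78191114 to 78206400) was at 18.7, 18.8, 16.9 and 19.5 CPM in BPA replicates 1 to 4, against 18.7, 17.3, 20.3 and 18.3 CPM in control replicates 1 to 4. The groups overlapped almost fully. The fold was 0.992 (95% interval 0.898 to 1.09), and the SD between mice was 6.00% of the mean in BPA mice and 6.85% in controls, where counting error alone gives 3.42% and 3.99%.

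Calb2, which marks interneurons that innervate other interneurons and, in the mouse, also mossy cells and immature granule cells (chromosome 8, 110137502 to 110168210), was at 31.8, 33.9, 31.0 and 33.5 CPM in BPA replicates 1 to 4. In control replicates 1 to 4 it was at 27.8, 32.2, 27.0 and 29.0 CPM. BPA replicates 2 and 4 lay above the top control library, replicate 2, and the other 3 controls lay below every BPA library. The mean was 32.5 ± 1.38 CPM in BPA mice and 28.98 ± 2.28 CPM in controls (SD, n = 4 each), a fold of 1.12 (95% interval 1.03 to 1.23). The log2 fold change was 0.17 ± 0.060 (SE; edgeR adjusted p 0.955, unadjusted p 0.0167), from 0.13 to 0.22 on leaving out 1 library. On leaving out 1 library the edgeR unadjusted p ran from 0.00171 to 0.0518. It was above 0.05 without BPA replicate 2, control replicate 1 or control replicate 3. Taking log2 library total as a covariate gave a log2 fold change of 0.11, with an edgeR unadjusted p of 0.281.

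Among other cells that make calretinin, mossy cells and Cajal-Retzius cells were examined beside this value. No marker list was made for immature granule cells. Of 7 mossy cell markers, 6 had a log2 fold change above 0 and 1 below, with a median of 0.11, and none passed. Their summed level was 176 to 189 CPM in BPA mice and 171 to 190.3 CPM in controls, most of it from Ociad2 and Ajap1. Drd2, a dopamine receptor that marks mossy cells in the mouse, was at 2.65 CPM in BPA mice and 2.38 CPM in controls. Csf2rb2, with 306 reads in all, was at 1.05 CPM in BPA mice and 0.808 CPM in controls (edgeR unadjusted p 0.0529, adjusted p 0.955). Its BPA values lay above every control value. It was 1 of 7 mossy cell markers without overlap, where 2.79% of all genes tested had none. Of 7 Cajal-Retzius cell markers, Lhx1 with 48 reads in all and Lhx5 with 28 did not reach the count needed for a test, and the other 5 had a log2 fold change below 0, with a median of -0.23. Trp73, which encodes p73, was at 2.12 CPM in BPA mice and 2.56 CPM in controls. Ebf3 was at 1.17 CPM in BPA mice and 1.41 CPM in controls. Cacna2d2, the most abundant of the 5, was at 24.4 CPM in both groups, with a log2 fold change of -0.00096. The 5 markers summed to 36.3 to 46.8 CPM in BPA mice and 37.9 to 51.2 CPM in controls, with overlap. Cacna2d2 made up most of that sum, so it says little about the rarer markers. None of the 5 passed, and the part of these cells in the Calb2, Reln and Ndnf values was not tested.

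The secreted factors did not pass the test. Reln, the extracellular glycoprotein reelin, which adult neurogliaform and somatostatin interneurons and Cajal-Retzius cells release (chromosome 5, 21884454 to 22344702), was at 51.2, 69.03, 59.1 and 62.7 CPM in BPA replicates 1 to 4, against 74.5, 63.02, 62.6 and 54.95 CPM in control replicates 1 to 4. BPA replicate 1 was the lowest and control replicate 1 the highest of the 8 libraries. The fold was 0.948 (95% interval 0.820 to 1.10; log2 fold change -0.077). With log2 library total as a covariate the log2 fold change of Reln was -0.40 (edgeR unadjusted p 0.00206, adjusted p 0.998), and without control replicate 1 it was 0.0072. Reln shares 246 exon bases with genes on the opposite strand, which leaves its count uncertain.

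Ndnf, a secreted neurotrophic factor of neurogliaform and Cajal-Retzius cells (chromosome 6, 65671590 to 65712326), was at 29.2, 32.6, 29.1 and 27.8 CPM in BPA replicates 1 to 4, against 30.5, 29.5, 28.1 and 29.2 CPM in control replicates 1 to 4. BPA libraries spanned the control range on both sides. The fold was 1.01 (95% interval 0.930 to 1.10).

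Of 13 genes that act with reelin, 0 passed, with 4 log2 fold changes above 0 and 9 below and a median of -0.029. Nck2, an adaptor protein, was at 46.6 ± 1.97 CPM in BPA mice and 52.2 ± 5.30 CPM in controls (log2 fold change -0.16 ± 0.067), or -0.099 without control replicate 4 and 0.065 when log2 library total was a covariate. Cdk5, a kinase that acts in parallel to reelin on neuronal position, was at 48.6 ± 1.41 CPM in BPA mice and 46.5 ± 1.14 CPM in controls (0.064 ± 0.043, or 0.036 with the covariate).

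The signalling members were the most abundant of the 10 by CPM. Erbb4, the receptor tyrosine kinase through which neuregulins act on parvalbumin and other interneurons (chromosome 1, 68032186 to 69108059), was at 149, 159, 163 and 168 CPM in BPA replicates 1 to 4. In control replicates 1 to 4 it was at 180.4, 179, 167 and 175 CPM. Control replicate 3 lay just below BPA replicate 4, and every other BPA value lay below every control value. The mean was 159.7 ± 7.73 CPM in BPA mice and 175 ± 6.16 CPM in controls (SD, n = 4 each), a fold of 0.911 (95% interval 0.848 to 0.979).

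The log2 fold change of Erbb4 was -0.13 ± 0.048 (SE; edgeR adjusted p 0.955, unadjusted p 0.0149), and it ranked 170 of 15434 genes by p. It ran from -0.16 to -0.10 on leaving out 1 library, with the lowest adjusted p, 0.629, without control replicate 3. The edgeR unadjusted p then ran from 0.00827 without control replicate 3 to 0.0541 without BPA replicate 1. Taking log2 library total as a covariate gave a log2 fold change of -0.17 (edgeR unadjusted p 0.0475). GENCODE places no gene on the opposite strand of Erbb4 in the table used here, while RefSeq lists Gm25542 and Gm51744 inside its span, with no strand given, so an overlap may be missed.

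Of 12 neuregulin and ErbB pathway genes, 0 passed, with 4 log2 fold changes above 0 and 8 below and a median of -0.024. Nrg2, a neuregulin ligand, was at 4.19 ± 0.361 CPM in BPA mice and 3.26 ± 0.650 CPM in controls (log2 fold change 0.36 ± 0.14, n = 4 each). Cntnap2, a neuronal adhesion protein, was at 149 ± 8.72 CPM in BPA mice and 157 ± 9.91 CPM in controls (-0.076 ± 0.057, or -0.045 without control replicate 4 and -0.047 without BPA replicate 4).

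Nos1, which makes nitric oxide in interneurons and at excitatory synapses (chromosome 5, 117781032 to 117958840), was at 164, 193, 146 and 186 CPM in BPA replicates 1 to 4, against 185, 156, 185 and 147 CPM in control replicates 1 to 4. Each group held libraries near 147 and near 185 CPM, so the groups overlapped over nearly their whole range. The fold was 1.02 (95% interval 0.889 to 1.18), while the log2 fold change was -0.19 with library total as a covariate. The SD between mice was 12.4% of the mean in BPA mice and 11.5% in controls, where counting error alone gives 1.12% and 1.32%. Nos1 shares 268 exon bases with Gm26995 on the opposite strand, which leaves its count uncertain.

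Of 15 genes of the nitric oxide pathway, 0 passed, with 7 log2 fold changes above 0 and 8 below and a median of -0.021. Gucy1a2, a subunit of the guanylyl cyclase that nitric oxide activates, was at 189.99 ± 13.2 CPM in BPA mice and 211 ± 17.3 CPM in controls (log2 fold change -0.15 ± 0.065, or -0.095 without control replicate 4 and -0.043 with library total as a covariate). Nos3, the endothelial synthase, was at 4.89 ± 0.616 CPM in BPA mice and 4.06 ± 0.462 CPM in controls (0.26 ± 0.12), and it overlaps Atg9b on the opposite strand.

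**Figure D3:**
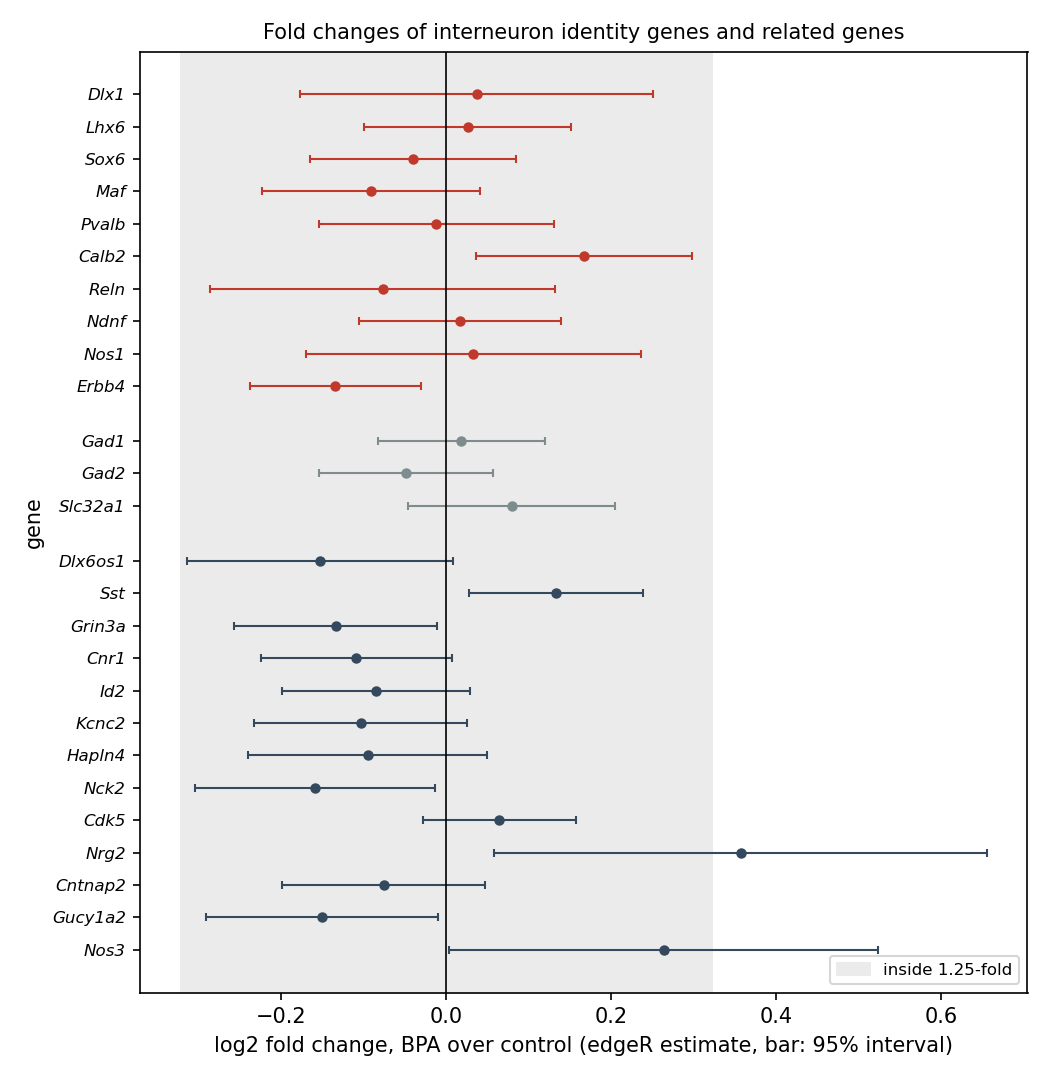
Log2 fold changes of BPA over control (horizontal axis, edgeR estimates) with 95% intervals for the 10 genes in red, Gad1, Gad2 and Slc32a1 in grey and genes of 7 related lists in blue, over a grey band that marks 1.25-fold in both directions. All 10 intervals in red, from the fit without depth, lie inside the band, those of Calb2 and Erbb4 on either side of 0.

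Genes shared by GABA neurons gave a common base. Gad1 and Gad2, which encode the enzymes that make GABA, had folds near 1, at 292 CPM in BPA mice and 289 CPM in controls for Gad1 and 289.96 CPM in BPA mice and 299.99 CPM in controls for Gad2. Slc32a1, the vesicular GABA transporter, was at 33.1 CPM in BPA mice and 31.3 CPM in controls, and it shares 697 exon bases with Gm14205 on the opposite strand. Its log2 fold change was 0.079, or 0.033 without control replicate 2. The geometric mean of the 3 genes was 139.7 to 143 CPM in BPA mice and 133 to 148 CPM in controls.

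Set against that mean within each library, Erbb4 was the member whose groups no longer overlapped. Its log2 ratio was 0.097 to 0.23 in BPA mice and 0.24 to 0.43 in controls, a difference of -0.15, where 2.77% of all genes showed no overlap on this scale. The log2 ratio of Calb2 was -2.18 to -2.05 in BPA mice and -2.36 to -2.04 in controls, a difference of 0.15 with overlap. For the other 8 genes the difference ran from -0.11 for Maf to 0.016 for Dlx1, and the groups overlapped.

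Among related lists no gene passed. Of 10 genes of GABA neurons in general, 7 had a log2 fold change above 0 and 3 below, with a median of 0.051. Dlx6os1, a noncoding RNA of the Dlx locus, was at 29.3 ± 3.12 CPM in BPA mice and 32.6 ± 2.18 CPM in controls (log2 fold change -0.15 ± 0.074, or -0.072 with library total as a covariate and -0.23 without BPA replicate 4). Dlx6os1 overlaps Dlx6 on the opposite strand, which leaves its count uncertain.

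Of 15 MGE lineage genes, Lhx8 had 3 reads and was not tested, 7 of the other 14 had a log2 fold change above 0 and 7 below, and the median was 0.0077. Sst, the somatostatin precursor, was at 193 ± 8.95 CPM in BPA mice and 176 ± 7.40 CPM in controls (log2 fold change 0.13 ± 0.049). Grin3a, an NMDA receptor subunit, was at 73.9 ± 2.86 CPM in BPA mice and 81.1 ± 6.50 CPM in controls (-0.13 ± 0.057, or -0.080 without control replicate 4 and -0.027 with library total as a covariate).

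Of 15 CGE lineage genes, 10 had a log2 fold change above 0 and 5 below, with a median of 0.033. Those above 0 include Prox1 (0.18), which is given above for dentate granule cells, so its value is not specific to CGE interneurons. Cnr1, the cannabinoid receptor of cholecystokinin basket cells, was at 272 ± 5.37 CPM in BPA mice and 294 ± 21.3 CPM in controls (-0.11 ± 0.053, or -0.060 without control replicate 4 and 0.00044 with library total as a covariate). Id2, an inhibitor of helix-loop-helix factors, was at 60.1 ± 3.74 CPM in BPA mice and 63.7 ± 2.63 CPM in controls (-0.086 ± 0.052, or -0.13 without BPA replicate 1).

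Of 16 genes of fast-spiking cells and the perineuronal nets around them, 9 had a log2 fold change above 0 and 7 below, with a median of 0.013. Kcnc2, a potassium channel for fast spiking, was at 131 ± 4.79 CPM in BPA mice and 141 ± 12.4 CPM in controls (-0.10 ± 0.060, or -0.052 without control replicate 4 and -0.061 with library total as a covariate). Hapln4, a link protein of the nets, was at 63.6 ± 5.05 CPM in BPA mice and 68.0 ± 5.27 CPM in controls (-0.096 ± 0.067, or -0.15 on leaving out either BPA replicate 1 or control replicate 2, and -0.040 with the covariate). Acan, the core proteoglycan of the nets, had a log2 fold change of 0.024.

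The 10 genes varied between mice to different degrees. Reln, Nos1 and Dlx1 had the widest spread within groups, with an SD of log2 CPM of 0.18, 0.18 and 0.17, at the 74.3, 73.5 and 72.3 percentiles of all genes tested. For the other 7 genes the SD was 0.062 to 0.093, below the median of 0.11 over all genes, with Erbb4 the least variable at the 16.1 percentile.

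The members did not share an order of libraries. BPA replicate 3 was highest for Dlx1 and Maf and lowest for Nos1 and Pvalb, while BPA replicate 2 was highest for Calb2, Ndnf and Nos1. Control replicate 4 was highest for Lhx6 and control replicate 1 for Reln, Sox6 and Erbb4. After the group means were removed, Dlx1 and Lhx6 were the most alike pair over the 8 libraries (Pearson r of 0.86), and Maf and Nos1 the most opposed (r of -0.81), a description of 45 pairs in libraries that also share depth and dissection.

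Over all genes without Gm or Rik symbols, the genes most like these 3 variable members by the same measure were, for Reln, Phka2 (r of 0.98), Aox4 (0.98) and Herc2 (0.97), for Nos1, Tmem185a, Plekhm3 (both 0.99) and Rubcn (0.98), and for Dlx1, Bdnf (0.99), Fam172a (0.99) and Syt11 (0.98). These are the closest of 14419 genes over 8 libraries, and choosing the closest favours high values.

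**Figure D4:**
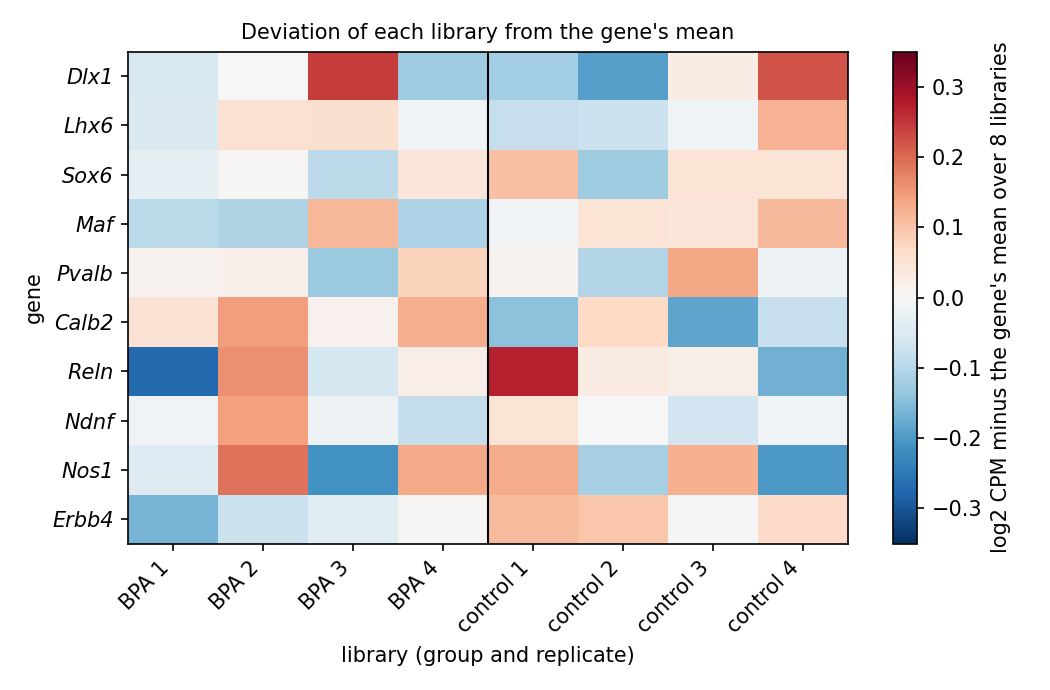
Deviation of each library (columns, BPA to the left of the line, control to the right) from the gene's mean over the 8 libraries, in log2 CPM on the colour scale, for the 10 genes in rows. Reln runs from -0.27 in BPA replicate 1 to 0.27 in control replicate 1, Nos1 is low in BPA replicate 3 and control replicate 4, and no library is high or low for all 10 genes.

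Markers of tissue next to the hippocampus were read for carry-over, since thalamus, striatum and cortex hold Pvalb, Calb2 or Reln cells of their own. Thalamus markers summed to 153 to 176 CPM in BPA mice and 152 to 186 CPM in controls (5 above 0 and 5 below). Striatum and septum markers summed to 138 to 146 CPM in BPA mice and 136 to 146 CPM in controls (4 above 0 and 5 below; Isl1 had 4 reads and was not tested), and neocortex and entorhinal markers to 387 to 417 CPM in BPA mice and 389.8 to 454 CPM in controls (4 above 0 and 7 below). The 12 endothelial and pericyte markers summed to 386 to 429.9 CPM in BPA mice and 390.1 to 436 CPM in controls (8 above 0 and 4 below). Rgs5, the most abundant of them, was at 129 CPM in BPA mice and 146 CPM in controls (edgeR unadjusted p 0.00565, adjusted p 0.955). It was 1 of the 12 without overlap, with BPA values below every control value, where 2.79% of all genes tested had none. No marker of these lists passed, and the 13 choroid plexus markers were all below 0, with a median log2 fold change of -1.22. Without control replicate 2, the library with the most choroid plexus signal, the log2 fold changes were 0.22 for Calb2, 0.020 for Ndnf, 0.0054 for Lhx6, -0.0017 for Nos1 and -0.019 for Dlx1. They were -0.048 for Pvalb, -0.084 for Reln, -0.088 for Sox6, -0.091 for Maf and -0.12 for Erbb4.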

How the data were processed

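Polyadenylated hippocampal RNA of 4 BPA and 4 control males was made into stranded libraries, per the labels' protocols. The authors deposited raw read counts per gene symbol (24527 rows, genes after refGene per the file headers). Trimmomatic 0.32, STAR 2.3.0e, featureCounts 1.5.0, DESeq2 without a version and the mm10 build are named in the submitters' processing notes. The strand setting is not stated in them. Columns were matched to samples by the library code in the title.

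After filterByExpr had taken out weakly counted genes, 15434 remained. They were tested with edgeR 4.0.16 in R 4.3.3 by quasi-likelihood, after TMM scaling, with a group term. The p was two-sided and adjusted over all genes tested (Benjamini-Hochberg, threshold 0.05). Standard errors and 95% intervals were derived from the test statistic. Levels are CPM with the SD over 4 mice, and log2 fold changes are BPA over control with their SE. Biological variation between mice had a coefficient of 8.20%. No library duplicated another of its group, since chi-square divided by its degrees of freedom was 10.2 to 24.8 over the 12 pairs within groups. Pairs across groups were not compared in this way. Spread, centred values and likeness used log2 CPM with a prior count of 2. Positions, exon lengths and strand overlaps come from GENCODE M21 (mm10), which counted exons that refGene may lack.

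The 10 genes and the 16 lists of related and marker genes were chosen with earlier results of these data known, and support nothing by their choice. In each of 7 related lists the genes past the threshold, or as none passed the 2 with the smallest p, are named, together with Gad1, Gad2 and Slc32a1. The result of 1 gene chosen by this rule is not reported here, though it stays in every count. Acan, Drd2, Csf2rb2, Trp73, Ebf3, Ociad2, Ajap1, Cspg4 and Rgs5 were chosen after their values were seen. So were the abundant markers given by name, as well as Prox1 and Wfs1. DESeq2 1.42.0, limma-voom (limma 3.58.1), other scalings, a replicate block, depth terms and leaving out each library were the alternatives.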

Additional observations from a re-analysis of the deposited data

Results flagged for a closer look

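Within each group of 4 mice, the gap from the highest or lowest library to its nearest neighbour was compared with the whole range (Dixon's test at 95%), for the 27 named genes in both groups, 54 groups of values in all. Chance flags about 1 in 20 such groups, and 2 were found. Maf stood out in BPA replicate 3, at 26.1 CPM against 22.3 to 22.5 CPM in the other BPA mice. Grin3a stood out in BPA replicate 4, at 78.1 CPM against 71.8 to 72.9 CPM in the other BPA mice.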

How the results depend on the processing

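Under 17 other settings, edgeR and limma-voom called 0 genes, and no setting called a member or a gene of the related and marker lists. DESeq2 called 7 genes, none of them a member. The median log2 fold change of the 10 genes, 0.0022 with all libraries, was -0.028 with log2 library total as a covariate, -0.033 after thinning to the smallest library, and -0.034 to 0.012 on leaving out 1 library. With library total as a covariate, values changed sign for Ndnf (-0.099), Nos1 (-0.19), Maf (0.0075), Gad2 (0.053), Cnr1 (0.00044) and Nck2 (0.065), and Ndnf was also at -0.0052 after thinning; the cause was not tested, and none passed. Leaving out 1 library also changed signs, with ranges of -0.048 to 0.032 for Pvalb, -0.043 to 0.12 for Dlx1, -0.15 to 0.0072 for Reln, -0.032 to 0.047 for Ndnf, -0.027 to 0.10 for Nos1 and -0.00023 to 0.043 for Gad1. Calb2, Erbb4, Lhx6 and Sox6 kept their direction under all 17 settings. The labels number the mice 1 to 4 in both groups without saying that a number pairs them. Deviations of same-numbered mice correlated at -0.12, -0.37, -0.30 and 0.070, and those of differently numbered mice at -0.17 to 0.32. With the number as a replicate block, edgeR called 0 genes and 498 had an unadjusted p under 0.05, against 698 without it.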
